A study of Mus musculus with 20 samples.

Results

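The cecum of mice fed a Western diet with 5% raw potato starch (RPS) was compared with that of mice fed the same diet with 0% RPS. The 10 mice, 5 on each diet, were taken by their diet labels from the 20 mice of the series. All were C57BL/6, were given the Total Western Diet (TWD, a rodent diet modelled on what Americans eat) from 3 weeks of age for 6 weeks, and then received the TWD alone (0% RPS) or the TWD with 5% RPS (w/w) for 3 weeks. Both groups therefore carry the same 6 weeks of Western feeding, and the comparison is between mice that stayed on that diet and mice that had RPS added to it. The labels give no sex, cage or library batch, although the Y-linked gene Ddx3y was expressed in all 10 mice, as in males. The mice of each diet are named mouse 1 to mouse 5, and these numbers do not pair mice across diets.

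RPS is uncooked potato starch, whose granules resist amylase, so that much of it reaches the cecum and is fermented there by bacteria. The main products are short-chain fatty acids, of which butyrate is burned by the epithelium, and the cecal epithelium absorbs water, salt and these acids but takes up little dietary fat. Genes for packaging fat into chylomicrons and for handling retinol have their highest expression in the small intestine, and low expression of some of them continues in the cecum. The question was which genes of the cecal wall differ once RPS has been eaten, and how 5% RPS compares with the diets that held 2% and 10%.

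Total counts were 25106282 to 38064842 per mouse with 0% RPS and 14967798 to 36295131 with 5% RPS, and the smallest library was mouse 3 on 5% RPS. The test covered 14925 genes, with a median of 524.5 counts per mouse. Epithelial markers were high in every mouse, with a summed level of 11365 to 15116 CPM (counts of a gene for each 1000000 counts of its library, scaled by TMM) with 0% RPS and 10639 to 12381 CPM with 5% RPS. Mitochondrial genes took 9.04 to 13.0% of the counts with 0% RPS and 9.63 to 15.4% with 5% RPS, and mouse 5 on 0% RPS and mouse 4 on 5% RPS, which had the highest shares, were also least like the other mice (median Spearman correlations of 0.978 and 0.977 across genes).

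With 5% RPS, 28 genes were upregulated (0.188% of those tested) and 37 were downregulated (0.248%), together 65 genes or 0.436%. The test was edgeR's quasi-likelihood test with 5 mice per diet, and a gene was called when its p, adjusted by the Benjamini-Hochberg method, was 0.05 or less and its fold change 1.5 or more. The downregulated genes with low p included genes of fat and retinol handling (Apoa4, Rbp2), of the response to low oxygen (Ndrg1, Slc2a1, Stc1) and of wound and inflammatory signaling (Il1rn, Plaur, Olr1). Those with low p among the upregulated genes included the urea cycle enzyme Nags, the matrix gene Fbn1 and the muscle genes Ldb3 and Casq2. In all 65 genes, the mice on the 2 diets did not overlap, which held for 3.73% of all tested genes (1.64% higher and 2.08% lower). The median absolute log2 fold change was 1.11 for the called genes and 0.13 for all tested genes. Calling genes on these same mice favors both the separation and the larger fold change, so nothing is read from either. Among the called genes 64 were protein-coding and 1 was an immunoglobulin segment. Without adjustment 1853 genes (12.4%) had a p under 0.05, of which 953 (6.39%) were higher and 900 (6.03%) lower. With 1 mouse left out at a time, 1 to 65 genes were upregulated and 4 to 55 downregulated, and Apoa4, Nags, Rbp2 and Ndrg1 were the 4 genes called in all 10 of these fits.

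**Figure D1:**
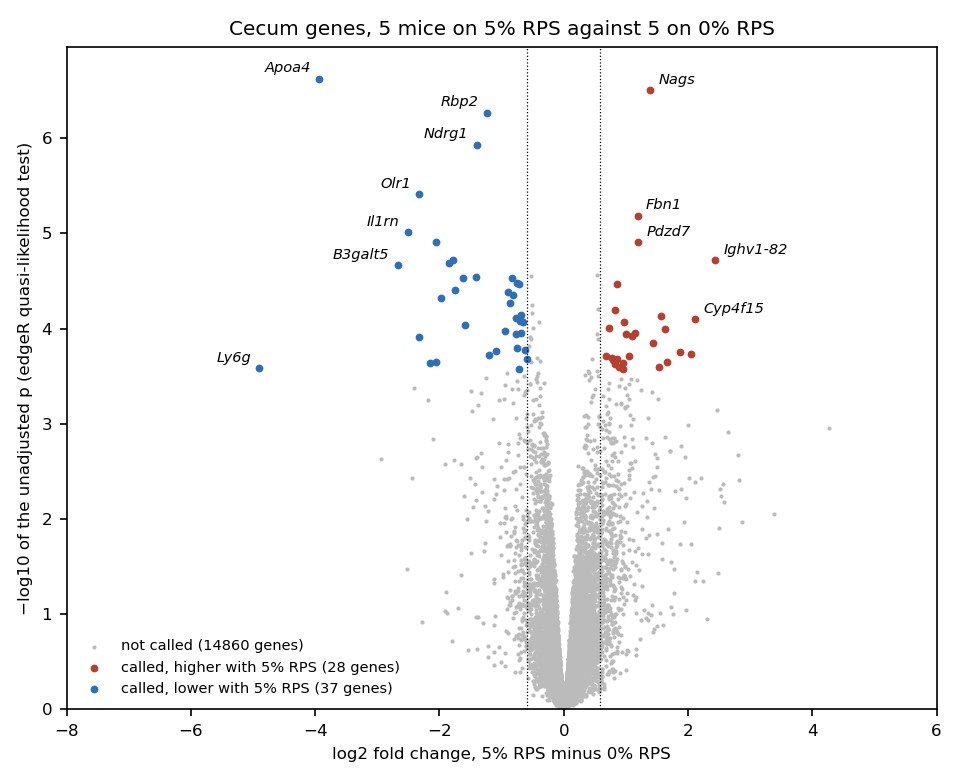
Each point is 1 of the tested genes, with the log2 fold change of 5% minus 0% RPS on the horizontal axis and the −log10 of the unadjusted edgeR p on the vertical axis. The 28 upregulated genes (red) and 37 downregulated genes (blue) lie outside the dotted lines at a fold change of 1.5, and Apoa4 and Nags have the lowest p.

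The level of smooth muscle markers also differed between the diets, and it did so beside every result that follows. The summed level of the 10 markers was 3976, 2970, 4062, 3374 and 7005 CPM in mice 1 to 5 on 0% RPS and 5043, 5428, 7799, 11446 and 8537 CPM in mice 1 to 5 on 5% RPS, so only mouse 5 on 0% RPS overlapped the mice fed 5% RPS. All 10 markers are expressed in every group, and none of them was at 0. In whole tissue, a different number of cells of a type and a different amount of RNA per cell cannot be told apart. When this level was added to the fit as a covariate, all 65 genes kept their direction, with a median absolute log2 fold change of 0.95, but the median SE rose from 0.18 to 0.22 and only Apoa4 of the 65 stayed called. The adjusted p of the 65 genes then ran from 0.0203 to 0.249, and 47 were at or below 0.10 by edgeR.

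The promoters of the called genes are shown here for a few genes whose expression fell, because letters that some transcription factors bind were found in them. Each sequence is the 250 bases upstream of the start of the canonical transcript, read from GRCm39. It is written 5′ to 3′ on the strand of the gene. Capitals mark AGGTCA, which is part of the sites that many nuclear receptors bind (NR motif). They also mark the AP-1 motif TGANTCA and the TATA box TATAAA, all on either strand.
Rbp2 (chr9:98372326-98372575, plus strand): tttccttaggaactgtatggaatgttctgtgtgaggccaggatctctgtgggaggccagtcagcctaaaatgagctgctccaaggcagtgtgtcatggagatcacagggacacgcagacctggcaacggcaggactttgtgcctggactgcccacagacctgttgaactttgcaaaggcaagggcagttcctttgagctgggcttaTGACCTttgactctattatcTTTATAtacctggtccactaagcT
Acot12 (chr13:91889335-91889584, plus strand): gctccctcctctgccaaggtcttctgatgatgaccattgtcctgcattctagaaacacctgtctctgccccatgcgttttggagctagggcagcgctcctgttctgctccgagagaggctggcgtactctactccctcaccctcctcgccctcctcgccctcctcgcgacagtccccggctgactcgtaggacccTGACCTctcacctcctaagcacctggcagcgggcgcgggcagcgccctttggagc
Creb3l3 (chr10:80928928-80929177, minus strand): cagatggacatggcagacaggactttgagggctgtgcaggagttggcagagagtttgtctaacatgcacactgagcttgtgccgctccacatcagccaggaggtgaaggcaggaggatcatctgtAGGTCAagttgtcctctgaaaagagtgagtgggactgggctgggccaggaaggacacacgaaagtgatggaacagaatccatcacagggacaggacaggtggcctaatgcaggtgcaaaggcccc
Olr1 (chr6:129484129-129484378, minus strand): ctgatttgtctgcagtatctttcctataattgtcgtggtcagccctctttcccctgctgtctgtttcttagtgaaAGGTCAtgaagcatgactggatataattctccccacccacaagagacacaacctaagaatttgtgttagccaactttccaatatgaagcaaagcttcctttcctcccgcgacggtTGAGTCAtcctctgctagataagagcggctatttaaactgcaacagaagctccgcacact
Il1rn (chr2:24226615-24226864, plus strand): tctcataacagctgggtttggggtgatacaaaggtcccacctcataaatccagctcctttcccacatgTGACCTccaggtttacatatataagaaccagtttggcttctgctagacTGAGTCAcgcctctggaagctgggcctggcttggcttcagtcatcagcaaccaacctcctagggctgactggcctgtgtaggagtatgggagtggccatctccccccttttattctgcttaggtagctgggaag
In Rbp2 the NR motif begins 44 bases before the start and a TATA box begins 24 bases before it. The last capital opens a second match of the TATA box that runs across the start. In Acot12 the NR motif begins 55 bases and in Creb3l3 125 bases before the start. Olr1 and Il1rn hold both the NR motif and the AP-1 motif, and the AP-1 motif begins 60 and 134 bases before their starts.

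Over the promoter window of 250 bases before to 50 after the start, AGGTCA was found in 16 of 37 downregulated genes and in 6 of 27 upregulated genes that had a promoter, compared with 13.5% of the 14631 promoters of tested genes. TGANTCA was found in 7 of the downregulated and 1 of the upregulated genes (5.6% of promoters of tested genes), and TATAAA in 8 and 4 (8.7%). The core of the hypoxia response element, ACGTG, was found in 5 and 7 (24.4%), part of the cyclic AMP response element, TGACGT, in 1 and 1 (10.4%), and the E-box CACGTG, which contains ACGTG, in 0 and 2 (9.4%). Among all 21770 promoters of protein-coding genes the shares were 15.1% for AGGTCA, 7.1% for TGANTCA, 13.2% for TATAAA, 20.7% for ACGTG, 8.6% for TGACGT and 7.8% for CACGTG. These are matches of letters and were not tested.

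A part of the genes of fat absorption fell with 5% RPS. Of 15 tested genes of chylomicron assembly and fat absorption, 3 fell (Apoa4, Creb3l3 and Dgat2), 0 rose, and the median log2 fold change of the list was -0.37, compared with 0.0012 over all tested genes. Apoa4 encodes apolipoprotein A-IV, a protein of chylomicrons that the intestine secretes after fat, and it lies on chromosome 9 of GRCm39 (46151994 to 46154757). It had 2.52, 1.9, 2.31, 2.11 and 1.96 CPM in mice 1 to 5 on 0% RPS and 0.296, 0.0565, 0.125, 0.126 and 0.0463 CPM in mice 1 to 5 on 5% RPS. The groups were far apart, but this is a low level in both, from 49 to 79 counts per mouse with 0% RPS and from 1 to 11 with 5% RPS, where 3 of the mice had 3 counts or fewer. The log2 fold change of Apoa4 was -3.94 (SE 0.38, adjusted p = 0.00234), and it depends on how so few counts are modelled.

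Creb3l3 encodes a membrane-bound transcription factor of liver and intestine that is released on fasting and activates lipid genes, Apoa4 among them. Its level was 125, 142, 211, 135 and 190 CPM with 0% RPS and 88.0, 64.2, 40.7, 42.5 and 30.2 CPM with 5% RPS. Mouse 1 had the highest level among the mice fed 5% RPS and was still below all mice fed 0% RPS (log2 fold change -1.59, SE 0.27, adjusted p = 0.0354). Dgat2, an enzyme that adds the last fatty acid to triglyceride, had 191, 196, 273, 220 and 243 CPM with 0% RPS and 148, 134, 123, 88.1 and 109 CPM with 5% RPS. It was 1.86-fold lower with 5% RPS (log2 fold change -0.90, SE 0.14, adjusted p = 0.0264). Apob, the structural protein of chylomicrons, did not pass the test, with 174 to 277 CPM with 0% RPS and 144 to 222 CPM with 5% RPS (log2 fold change -0.37, adjusted p = 0.291). In the fit with the smooth muscle covariate the estimate for Apob was 0.03. A gene of lipid droplets, Cidec, also fell, from 55.3 to 83.8 CPM with 0% RPS to 33.0 to 44.3 CPM with 5% RPS (log2 fold change -0.77, adjusted p = 0.0337). Cidec stands in the list of adipocyte markers, in which 1 of 6 tested genes fell and 0 rose.

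In the list of retinol and retinoic acid metabolism Rbp2 fell with 5% RPS, 0 of 15 tested genes rose, and the median log2 fold change was -0.19. Rbp2 encodes a binding protein of the absorptive epithelium that holds retinol inside the cell for esterification (chromosome 9 of GRCm39, 98368121 to 98391834). The gene overlaps Gm37113 on the same strand, so that reads from the overlap cannot be assigned to one of the 2 with certainty. Rbp2 had 53.8, 49.2, 71.6, 46.3 and 48.9 CPM with 0% RPS and 27.2, 21.5, 23.5, 19.8 and 22.5 CPM with 5% RPS. The level was thus 2.36-fold lower with 5% RPS, with a log2 fold change of -1.24 (SE 0.13, adjusted p = 0.00268). Dhrs9, a dehydrogenase that can oxidize retinol, had 40.4 to 120 CPM with 0% RPS and 23.3 to 31.8 CPM with 5% RPS and did not pass the test (log2 fold change -1.25, adjusted p = 0.0534).

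For fatty acid oxidation and ketogenesis, 1 of 20 tested genes fell and 0 rose, although 19 of the 20 estimates were lower with 5% RPS (median log2 fold change -0.21). The gene that fell was Acot12, which hydrolyzes acetyl-CoA in the cytosol, with 2.24, 3.64, 3.78, 3.75 and 3.43 CPM with 0% RPS and 0.967, 0.594, 1.56, 0.662 and 1.02 CPM with 5% RPS, a 3.59-fold lower level (log2 fold change -1.84, SE 0.27, adjusted p = 0.0242). Pdk4, the kinase that turns off pyruvate dehydrogenase when fat is burned, had 97.9 to 178 CPM with 0% RPS and 25.4 to 72.3 CPM with 5% RPS, and its adjusted p was 0.0685. The mice on the 2 diets did not overlap for Pdk4.

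Among genes known to be induced by low oxygen, Ndrg1, Slc2a1 and Stc1 fell with 5% RPS. The epithelium of the large intestine normally has little oxygen, and the factor HIF-1 raises genes for glucose uptake and glycolysis there. Of 16 tested genes, 3 fell and 0 rose, with a median log2 fold change of -0.24. The summed level of the 16 genes was 2619, 2346, 2892, 2514 and 2910 CPM in mice 1 to 5 on 0% RPS and 2119, 2100, 1666, 1836 and 1843 CPM in mice 1 to 5 on 5% RPS, with no overlap. This sum contains the 3 called genes, so it is not separate evidence for the list. The mean level with 0 and 5% RPS was 555 and 211 CPM for Ndrg1 and 348 and 207 CPM for Slc2a1. Ndrg1, a stress-responsive gene of differentiating epithelium (chromosome 15 of GRCm39, 66801166 to 66841835), had 506, 454, 687, 512 and 615 CPM with 0% RPS and 293, 205, 170, 188 and 198 CPM with 5% RPS. It was 2.63-fold lower with 5% RPS (log2 fold change -1.40, SE 0.16, adjusted p = 0.00434).

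Slc2a1, which encodes the glucose transporter GLUT1, had 339, 295, 363, 323 and 420 CPM with 0% RPS and 225, 231, 190, 224 and 167 CPM with 5% RPS. It was 1.68-fold lower (log2 fold change -0.75, SE 0.12, adjusted p = 0.0242), and it was also the 1 gene of 8 tested that fell in the list of sugar transport, fructolysis and gluconeogenesis, in which 0 rose. Stc1, the secreted glycoprotein stanniocalcin-1, had 9.30, 8.83, 5.72, 11.5 and 8.90 CPM with 0% RPS and 3.49, 1.67, 1.5, 3.37 and 1.06 CPM with 5% RPS (log2 fold change -1.97, SE 0.32, adjusted p = 0.0288).

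**Figure D2:**
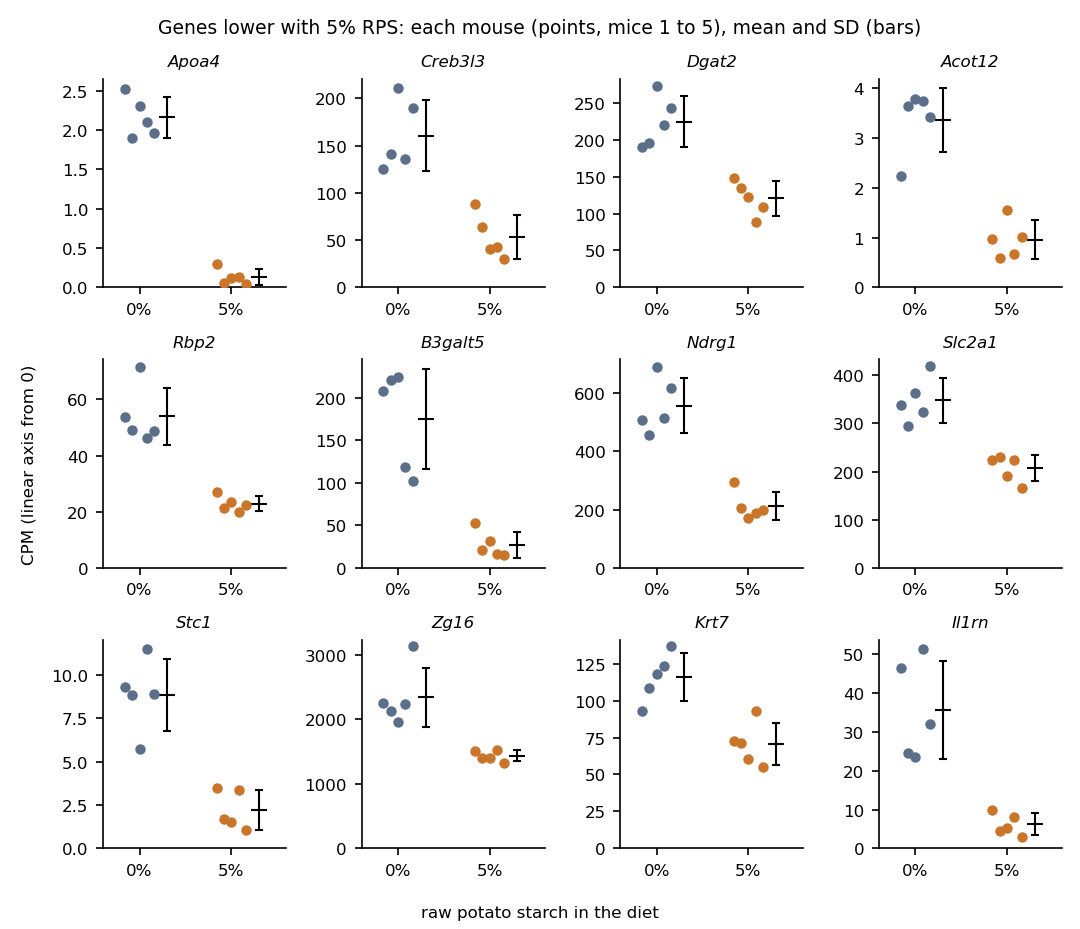
Each panel shows 1 downregulated gene in CPM on a linear axis from 0, with a point for each of the 5 mice on 0% RPS (left) and 5% RPS (right) and bars for the mean and SD. In all 12 panels the mice on the 2 diets do not overlap, with Apoa4 between 0.0463 and 0.296 CPM and Rbp2 between 19.8 and 27.2 CPM in mice fed 5% RPS.

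Goblet cells secrete mucus and proteins that hold bacteria off the epithelium. Of the 10 goblet cell genes, 2 fell (Zg16 and Krt7), 0 rose, and the median log2 fold change was -0.45. Zg16, a lectin that binds Gram-positive bacteria, had 2257, 2135, 1966, 2234 and 3142 CPM with 0% RPS and 1519, 1405, 1408, 1526 and 1333 CPM with 5% RPS. The level was 1.63-fold lower with 5% RPS (log2 fold change -0.71, SE 0.12, adjusted p = 0.0337). Krt7, a keratin, had 93.2, 108, 118, 123 and 137 CPM with 0% RPS and 72.9, 71.3, 60.5, 92.7 and 55.2 CPM with 5% RPS (log2 fold change -0.72, SE 0.14, adjusted p = 0.0495). Mouse 4 on 5% RPS came within 1 CPM of mouse 1 on 0% RPS. Tff3, a trefoil peptide of goblet cells, had an adjusted p of 0.0365 but a fold change under the threshold (log2 fold change -0.52), from 695 to 922 CPM with 0% RPS and 483 to 609 CPM with 5% RPS. The summed level of the goblet cell genes was 9024 to 12137 CPM with 0% RPS and 8137 to 11885 CPM with 5% RPS, where mouse 4 was the highest and the other mice did not exceed 8482 CPM.

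Among epithelial antimicrobial and acute-phase proteins the direction was mixed, with 1 of 15 tested genes higher (Saa1) and 2 lower (Zg16 and Defb37). Saa1, serum amyloid A1, is an acute-phase protein that intestinal epithelium makes in response to bacteria. It had 147, 71.6, 55.8, 74.6 and 64.3 CPM with 0% RPS and 186, 311, 170, 279 and 331 CPM with 5% RPS, a 3.09-fold higher level (log2 fold change 1.63, SE 0.28, adjusted p = 0.0354). Mouse 1 on 0% RPS stood above the other mice on that diet and below all mice on 5% RPS. Reads of Saa1 may be shared with the nearly identical Saa2, and their assignment is not given in the sources used here. Defb37, a beta-defensin, had only 23 to 29 counts per mouse with 0% RPS and 4 to 12 with 5% RPS (log2 fold change -1.78, adjusted p = 0.0242).

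Several downregulated genes have known roles in inflammation, wound repair and immune signaling. Il1rn, which encodes the antagonist that blocks the interleukin-1 receptor (chromosome 2 of GRCm39, 24226865 to 24241506), had 46.5, 24.5, 23.6, 51.2 and 32.1 CPM with 0% RPS and 9.99, 4.49, 5.25, 8.11 and 3.01 CPM with 5% RPS. The level was 5.70-fold lower with 5% RPS (log2 fold change -2.51, SE 0.34, adjusted p = 0.0205). Olr1, a scavenger receptor for oxidized lipoprotein, had 6.93, 4.57, 7.70, 5.04 and 3.00 CPM with 0% RPS and 1.18, 1.61, 0.938, 0.789 and 0.833 CPM with 5% RPS, a 5.01-fold lower level (log2 fold change -2.32, SE 0.29, adjusted p = 0.0116). Plaur, the urokinase receptor, ran from 23.7 to 49.7 CPM with 0% RPS and from 7.63 to 16.9 CPM with 5% RPS (log2 fold change -1.62, adjusted p = 0.0242). Sema7a, a membrane-anchored semaphorin, ran from 71.7 to 99.4 CPM and from 10.6 to 35.9 CPM (log2 fold change -1.75, adjusted p = 0.0264). Ly6g, a marker of neutrophils, was the only one of 2 tested neutrophil genes to fall, with 16, 2.01, 0.624, 7.41 and 2.07 CPM with 0% RPS and 0.242, 0.113, 0, 0.315 and 0.185 CPM with 5% RPS. Its log2 fold change of -4.90 had an SE of 0.93 (adjusted p = 0.0493), it spread widely among the mice fed 0% RPS, and it belongs to a family of similar genes.

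The remaining downregulated genes with the lowest p were of varied function. B3galt5, a galactosyltransferase of glycan chains, had 208, 221, 224, 119 and 103 CPM with 0% RPS and 52.4, 21.3, 31.6, 16.7 and 14.8 CPM with 5% RPS, a 6.38-fold lower level (log2 fold change -2.67, SE 0.38, adjusted p = 0.0242). Trim29, a tripartite-motif protein, ran from 3.72 to 8.18 CPM with 0% RPS and from 0.833 to 2.08 CPM with 5% RPS (log2 fold change -2.06, adjusted p = 0.0205). Bmp8b, a ligand of the bone morphogenetic protein family, had a log2 fold change of -1.41 (adjusted p = 0.0242), but its gene overlaps another gene on the same strand. Phldb2, a protein of the cell cortex, and Btg2, which slows cell division, had log2 fold changes of -0.84 and -0.72 (adjusted p = 0.0242 for both). Chosen after their values were seen, Cldn4, a claudin of tight junctions, fell from 227 to 316 CPM to 60.4 to 171 CPM (log2 fold change -1.20, adjusted p = 0.0460), and the neighboring genes S100a14 and S100a16, which encode calcium-binding proteins of epithelia, fell with log2 fold changes of -0.94 and -0.81. With 1 mouse left out at a time, Cldn4 was called in 0 of 10 fits, S100a14 in 2 and S100a16 in 5.

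Nags had the lowest p among the upregulated genes. It encodes N-acetylglutamate synthase, whose product switches on the first step of the urea cycle, and lies on chromosome 11 of GRCm39 (102036339 to 102040303). Its level was 2.97, 3.18, 2.64, 3.49 and 3.02 CPM with 0% RPS and 7.09, 7.91, 7.44, 8.04 and 9.67 CPM with 5% RPS. The groups were well separated and narrow, and the level was 2.62-fold higher with 5% RPS (log2 fold change 1.39, SE 0.14, adjusted p = 0.00234). Ggt1, which cleaves glutathione outside the cell, had 5.69, 3.02, 3.12, 3.32 and 2.65 CPM with 0% RPS and 7.52, 8.08, 7.75, 6.94 and 8.05 CPM with 5% RPS (log2 fold change 1.11, SE 0.20, adjusted p = 0.0362). Cyp4f15, a cytochrome P450 of the family that hydroxylates fatty acids and leukotrienes, ran from 1.55 to 4.08 CPM and from 4.22 to 16.3 CPM (log2 fold change 2.11, adjusted p = 0.0337), and its reads could be divided among similar genes.

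The upregulated genes also included Actg2, Ldb3 and Casq2, which encode proteins of muscle cells, and the matrix genes Fbn1 and Col5a2. Of 10 smooth muscle markers, 1 rose (Actg2), 0 fell, and all 10 estimates were higher with 5% RPS (median log2 fold change 0.76). Actg2, the gamma actin of smooth muscle, had 387, 238, 256, 292 and 338 CPM with 0% RPS and 453, 477, 1066, 1300 and 1079 CPM with 5% RPS. The level was 2.89-fold higher with 5% RPS (log2 fold change 1.53, SE 0.29, adjusted p = 0.0488), and mice 1 and 2 on 5% RPS were nearer to the mice fed 0% RPS than the other 3 were. Ldb3, a protein of the contractile apparatus, ran from 6.86 to 10.1 CPM with 0% RPS and from 13.5 to 23.3 CPM with 5% RPS (log2 fold change 0.97, adjusted p = 0.0337). Casq2, which binds calcium in the sarcoplasmic reticulum, ran from 2.02 to 3.35 CPM and from 4.64 to 6.85 CPM (log2 fold change 1.0, adjusted p = 0.0354). Fitted with the smooth muscle level as a covariate, the log2 fold change was 0.65 for Actg2, 0.59 for Ldb3 and 0.78 for Casq2, and their adjusted p was 0.249, 0.107 and 0.106. Actg2 is itself 1 of the 10 markers summed for this covariate, which by construction takes up part of its difference, so its covariate value says nothing further.

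Fbn1, which encodes fibrillin-1 of elastic microfibrils (chromosome 2 of GRCm39, 125142514 to 125349913), had 9.74, 8.95, 9.76, 8.39 and 9.85 CPM with 0% RPS and 16.8, 16.8, 21.3, 21.5 and 30.3 CPM with 5% RPS. Its level was 2.28-fold higher with 5% RPS (log2 fold change 1.19, SE 0.16, adjusted p = 0.0161) and its log2 fold change with the smooth muscle covariate was 0.90. Col5a2, a chain of type V collagen, ran from 22.9 to 28.8 CPM and from 33.5 to 51.9 CPM (log2 fold change 0.72, adjusted p = 0.0354). Of the 7 fibroblast markers, 0 were called, 6 estimates were higher with 5% RPS, and the summed level was 655, 663, 495, 554 and 510 CPM in mice 1 to 5 on 0% RPS and 670, 735, 848, 1018 and 961 CPM in mice 1 to 5 on 5% RPS. Col1a1, a chain of type I collagen, had 41.9 to 67.9 CPM and 74.2 to 167 CPM (log2 fold change 0.91, adjusted p = 0.0863).

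Of the other upregulated genes with the lowest p, Retnla and Mov10 have known roles in immunity. Retnla, a secreted product of alternatively activated macrophages and of epithelium, had 2.88, 1.70, 4.95, 3.29 and 1.96 CPM with 0% RPS and 7.25, 7.57, 7.25, 7.51 and 10.5 CPM with 5% RPS (log2 fold change 1.44, SE 0.26, adjusted p = 0.0396). Mov10, an RNA helicase that restricts retroelements, had 30.2, 46.2, 30.4, 29.9 and 29.3 CPM with 0% RPS and 51.5, 55.7, 71.9, 79.9 and 107 CPM with 5% RPS (log2 fold change 1.14, SE 0.20, adjusted p = 0.0354). The immunoglobulin segment Ighv1-82 had 12 to 30 counts per mouse with 0% RPS and 61 to 93 with 5% RPS, a 5.42-fold higher level (log2 fold change 2.44, adjusted p = 0.0242), and variable segments share sequence. Pdzd7, a scaffold protein known from the inner ear, ran from 11.3 to 19.9 CPM and from 25.7 to 42.7 CPM (log2 fold change 1.19, adjusted p = 0.0205). Pdzd7 overlaps Lzts2 and Sfxn3 on the other strand, and Apoa4, Ttll9 and Ggt1 each overlap 1 gene on the other strand. Tppp and Ttll9, which act on microtubules, and Camk2n1, an inhibitor of a calcium-dependent kinase, had log2 fold changes of 0.86, 1.56 and 0.82 (adjusted p = 0.0242, 0.0337 and 0.0325).

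**Figure D3:**
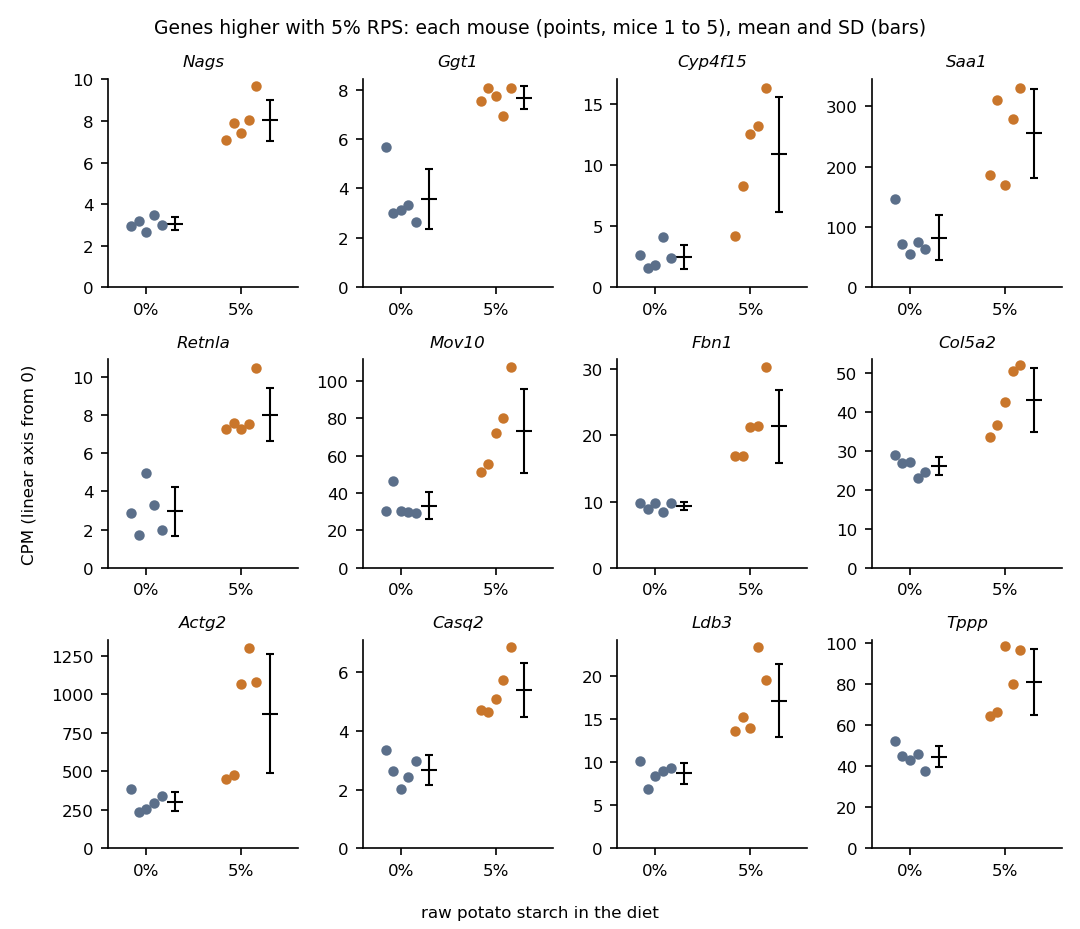
Each panel shows 1 upregulated gene in CPM on a linear axis from 0, with a point for each of the 5 mice on 0% RPS (left) and 5% RPS (right) and bars for the mean and SD. Nags lies between 2.64 and 3.49 CPM with 0% RPS and between 7.09 and 9.67 CPM with 5% RPS, whereas Actg2 spreads from 453 to 1300 CPM in mice fed 5% RPS.

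Many pathways held no called gene. Of 38 gene lists, 10 had a called member, and 16 of the 401 tested list genes were called (3.99%, compared with 0.436% of all tested genes). The lists were drawn up with earlier results of these data known, so this share is not independent evidence. In the list of epithelial oxidases, which make hydrogen peroxide and nitric oxide at the gut surface, 0 of 9 tested genes were called but all 9 estimates were higher (median log2 fold change 0.53). Their summed level was 179, 186, 142, 114 and 119 CPM in mice 1 to 5 on 0% RPS and 203, 278, 209, 227 and 467 CPM in mice 1 to 5 on 5% RPS. Noxa1, the activator subunit of the oxidase NOX1, had an adjusted p of 0.0354 but a log2 fold change of only 0.53, from 37.7 to 44.6 CPM with 0% RPS and 50.3 to 71.6 CPM with 5% RPS. Duoxa2, the maturation factor of the oxidase DUOX2, had 1.58 to 11.8 CPM with 0% RPS and 14.4 to 58.2 CPM with 5% RPS (log2 fold change 2.11, SE 0.58, adjusted p = 0.150).

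Type 1 interferon-stimulated genes gave 0 of 20 called, with 18 estimates higher and a median log2 fold change of 0.57. Their summed level was 294 to 570 CPM with 0% RPS and 538 to 779 CPM with 5% RPS, and the groups overlapped. Irf7, a transcription factor of the interferon response, had 75.1 to 150 CPM with 0% RPS and 138 to 298 CPM with 5% RPS (log2 fold change 1.06, adjusted p = 0.0555). Genes of MHC class I and the immunoproteasome gave 0 of 11 called, MHC class II presentation 0 of 9, B cells and follicles 0 of 14 and macrophages 0 of 12. Every estimate in these 4 lists was higher with 5% RPS (median log2 fold changes 0.29, 0.38, 0.45 and 0.37), while the summed level of each overlapped between the diets. T and NK cells gave 0 of 13 called, with 6 estimates higher and a median of -0.07. B cell markers varied widely between mice of 1 diet, from 14.2 to 326 CPM with 0% RPS and from 19.6 to 226 CPM with 5% RPS. Plasma cell genes gave 0 of 10 called, with 8 estimates higher and a median of 0.51. Among them Ighg1 had 1.27 to 10.4 CPM with 0% RPS and 15 to 42.9 CPM with 5% RPS (log2 fold change 2.46, adjusted p = 0.0731).

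No gene was called among 11 tested for transport and sensing of short-chain fatty acids or among 16 for salt, bicarbonate and water transport. The median log2 fold changes were -0.02 and -0.09, with 5 of 11 and 8 of 16 estimates higher. The summed levels of both lists did not overlap between the diets. Those of other lists did not overlap either, among them hypoxia targets and epithelial oxidases. Such a sum is set mostly by its most abundant members, so it does not show a shift of the list as a whole. For short-chain fatty acids the sum lay from 3374 to 3573 CPM without RPS, below the 3661 to 4574 CPM of the mice fed 5% RPS. For salt and water it was 28834 to 33336 CPM without RPS, above the 21261 to 27486 CPM of the mice fed 5% RPS. Slc5a8, a sodium-coupled carrier of butyrate, had 44.8 to 111 CPM with 0% RPS and 109 to 189 CPM with 5% RPS (log2 fold change 0.98, SE 0.21, adjusted p = 0.0706). Slc26a3, the chloride and bicarbonate exchanger of the large intestine, had 919 to 1307 CPM and 1383 to 2262 CPM (log2 fold change 0.61, adjusted p = 0.0910). The sodium and proton exchanger Slc9a3 had 284 to 456 CPM with 0% RPS and 144 to 351 CPM with 5% RPS (log2 fold change -0.89, adjusted p = 0.113), and the water channel Aqp8 had 1650 to 2449 CPM and 825 to 1492 CPM (log2 fold change -0.64, adjusted p = 0.134). Slc10a2, the bile acid carrier, had 39.9 to 76.7 CPM with 0% RPS and 84.7 to 191 CPM with 5% RPS and an adjusted p of 0.0534 (log2 fold change 1.18). It was the 1 gene at an unadjusted p under 0.05 among 7 tested for bile acids, of which 0 were called.

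Of the other lists with 0 called genes, the median log2 fold change was -0.02 for cholesterol synthesis and uptake, -0.07 for vitamin D targets and calcium transport, -0.28 for ligands and receptors of the EGF family, -0.14 for the unfolded protein response, -0.23 for the circadian clock, -0.33 for immediate early genes and -0.06 for the cell cycle. Among cell type markers it was -0.14 for epithelium, 0.09 for stem cells and Wnt targets, 0.29 for enteroendocrine cells, 0.08 for tuft cells, -0.17 for enteric neurons and glia, -0.0044 for endothelium, -0.38 for small intestinal enterocytes and 0.09 for erythrocytes. All 7 epithelial estimates and 6 of the 7 for small intestinal enterocytes were lower with 5% RPS, while 8 of the 9 for stem cells and Wnt targets were higher. Of 7 markers of pancreatic acinar cells, 1 was tested and it was not called. Among the immediate early genes, all 11 estimates were lower with 5% RPS, and Ier3 came nearest to the threshold (log2 fold change -0.76, adjusted p = 0.0539).

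**Figure D4:**
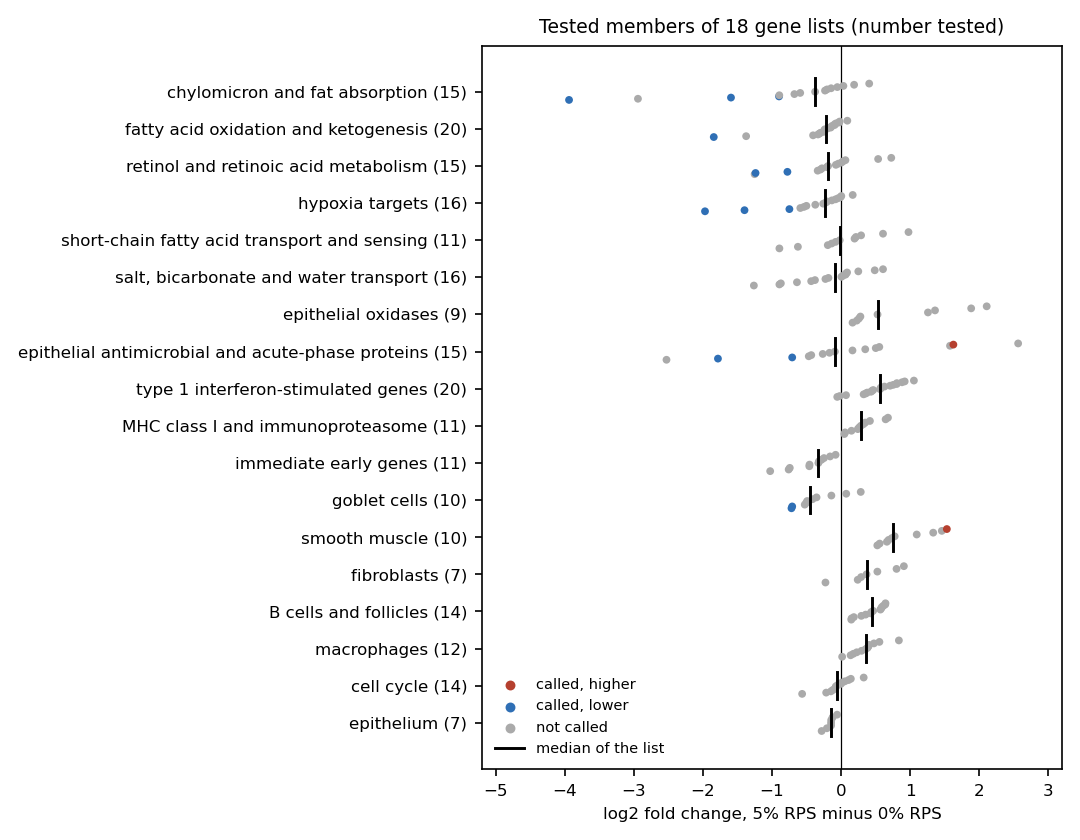
Each point is a tested gene of 1 of 18 lists, with its log2 fold change of 5% minus 0% RPS on the horizontal axis, red where it was called higher, blue where it was called lower and gray where it was not called. Black bars mark the median of the list, which is -0.37 for chylomicron and fat absorption genes and 0.76 for smooth muscle markers.

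The diets with 2 and 10% RPS were set against 5% RPS directly, in 1 edgeR model of all 20 mice and 15348 tested genes. Between 5 and 2% RPS, 0 genes (0%) passed the threshold, 520 had an unadjusted p under 0.05, and the lowest adjusted p was 0.9998. Between 10 and 5% RPS, 0 genes (0%) passed, 428 had an unadjusted p under 0.05, and the lowest adjusted p was also 0.9998. DESeq2's Wald test called 0 genes in both comparisons. Over the 10 fits that each left out a mouse of the diets compared, the lowest adjusted p was 0.221 for 5 against 2% RPS (without mouse 5 on 2% RPS) and 0.485 for 10 against 5% RPS (without mouse 1 on 5% RPS).

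For the 30 genes with the lowest p, all 15 upregulated genes had higher estimates with 5 than with 2% RPS and all 15 downregulated genes had lower ones, and 23 of the 30 had an unadjusted p under 0.05. These genes were chosen on the same mice fed 5% RPS, which favors this direction and also favors levels nearer to 0% RPS in the mice fed 10% RPS, so nothing is read from either tally. With that limit, 4 of the 15 upregulated genes were higher, and 4 of the 15 downregulated genes lower, with 10 than with 5% RPS, and 3 of the 30 had an unadjusted p under 0.05. On the scale of all 20 mice, the mean Rbp2 level was 54.9 ± 10.6 CPM with 0%, 32.6 ± 9.37 CPM with 2%, 23.2 ± 2.94 CPM with 5% and 23 ± 8.16 CPM with 10% RPS (SD, n = 5 each). Its log2 difference was -0.49 (SE 0.21) for 5 against 2% RPS and -0.02 (SE 0.21) for 10 against 5% RPS. Nags had 3.11 ± 0.32, 6.00 ± 1.34, 8.14 ± 1.01 and 7.31 ± 2.53 CPM with 0, 2, 5 and 10% RPS, with log2 differences of 0.43 (SE 0.20) and -0.15 (SE 0.20).

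The log2 difference of Acot12 was -0.12 (SE 0.39) for 5 against 2% RPS, with 3.43 ± 0.67 CPM on 0%, 1.03 ± 0.41 CPM on 2%, 0.975 ± 0.392 CPM on 5% and 1.44 ± 1.05 CPM on 10% RPS (SD, n = 5 each), and 0.57 (SE 0.39) for 10 against 5% RPS. Stc1 had 9.0 ± 2.09, 4.66 ± 1.76, 2.25 ± 1.14 and 1.92 ± 0.74 CPM with 0, 2, 5 and 10% RPS, lower at each higher percentage in the means. Of the 30 genes with the lowest p for 5 against 0% RPS, B3galt5, Defb37 and Casq2 were the 3 with an unadjusted p under 0.05 between 10 and 5% RPS. B3galt5 had 178 ± 61.5, 99.3 ± 48.0, 27.8 ± 15.8 and 62.8 ± 42.5 CPM with 0, 2, 5 and 10% RPS, and its log2 difference between 10 and 5% RPS was 1.17 (SE 0.49). None of these differences passed adjustment over all genes, so the response to 5% RPS was not shown to differ from that to 2 or to 10% RPS, and SEs of this size leave room for sizable differences.

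**Figure D5:**
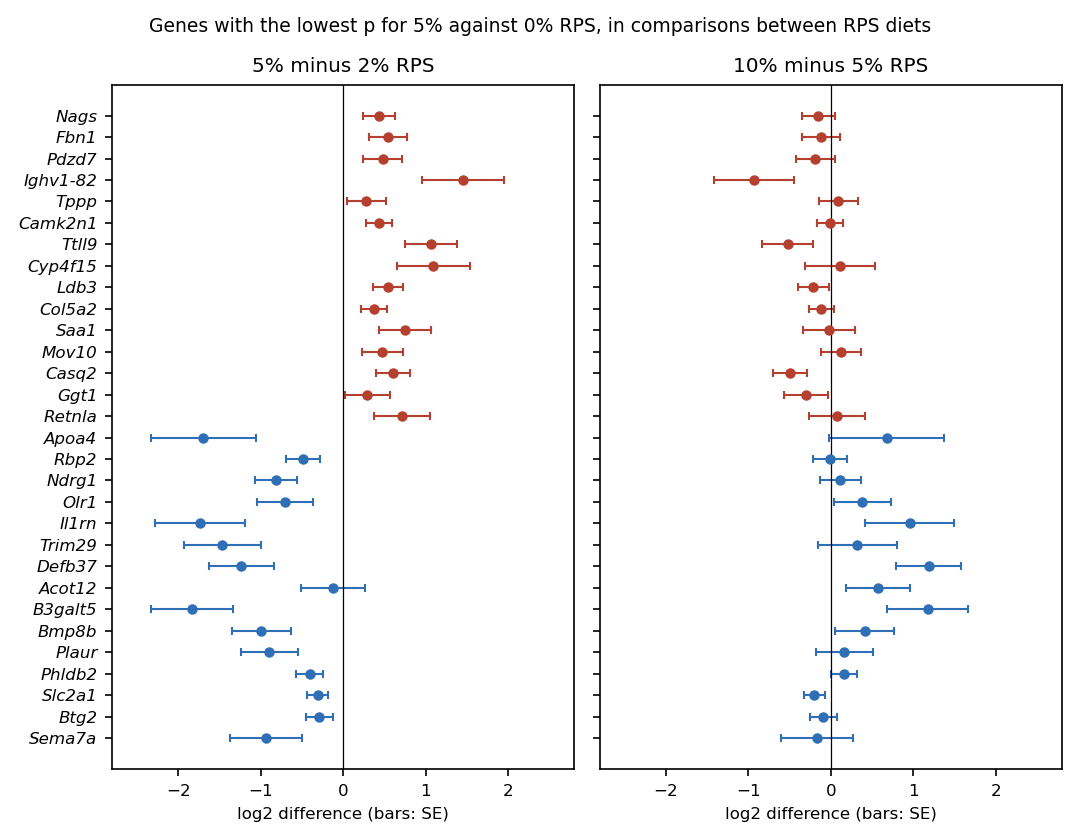
For the 15 upregulated (red) and 15 downregulated (blue) genes with the lowest p, points show the log2 difference of 5 minus 2% RPS (left) and 10 minus 5% RPS (right), with bars for the SE. On the left all red points are above 0 and all blue points below it, a direction that the choice of genes on the mice fed 5% RPS favors, and on the right points of both colors lie on both sides of 0, with B3galt5 at 1.17.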

How the data were processed

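RNA from the cecum of 10 mice, 5 per diet, was analyzed. The authors deposited raw read counts per gene, made by quality trimming and by mapping reads (single-end, from stranded mRNA libraries) to GRCm39 in the CLC Genomics Workbench. The annotation release, the strand setting and how reads that fit more than 1 gene were handled are not given in the sources used here. Total counts per mouse and the floor of 3 counts (0.0806 to 0.188 CPM) limit the precision, and these limits cover counting error only.

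Of 19887 genes, those passing edgeR's filterByExpr (minimum count 10, minimum total 15) were scaled by TMM and fitted with a robust quasi-likelihood model of the 10 mice in edgeR 4.0.16 (R 4.3.3, limma 3.58.1, DESeq2 1.42.0). All p-values are two-sided and Benjamini-Hochberg adjusted over all tested genes. CPM are counts scaled by TMM. The comparisons with 2 and 10% RPS used all 20 mice. SEs came from the fold change and the F statistic. Scripts were tested on simulated data. Same-diet pairs of mice differed by a chi-square of 14.6 to 135 per degree of freedom, so no library was counted again. Gene positions and canonical starts came from GENCODE M39, in which 19827 identifiers were found, and promoters were read from GRCm39 for 64 of the 65 called genes.

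The members and the 38 gene lists were chosen with earlier results of these data known. The genes named are the 15 with the lowest p in each direction, every called list gene, and up to 3 genes with the lowest p in each list, apart from results that are not reported here. Alternatives were other scalings, filters, tests and thresholds, all 20 mice in 1 fit, and each mouse left out. Covariates for smooth muscle and B cell markers and the omission of 2 mice were added after seeing the data.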

Additional observations from a re-analysis of the deposited data

Results flagged for a closer look

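In 164 groups of 5 mice (a called gene named in the report, the summed level of a list, or a measure of the library on 1 diet), 17 had a mouse that stood apart from the other 4 by Dixon's test at the 95% level. Chance gives about 1 such mouse in 20 groups, and several of these groups share a mouse.

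With 0% RPS, mouse 1 stood apart for 4 genes. It had the highest Saa1 level (147 CPM, compared with 55.8 to 74.6 CPM in the other mice), Ggt1 level (5.69 CPM, compared with 2.65 to 3.32 CPM) and Bmp8b level (20.3 CPM, compared with 12.8 to 14.7 CPM), and the lowest Acot12 level (2.24 CPM, compared with 3.43 to 3.78 CPM). Mouse 2 had the highest Mov10 level (46.2 CPM, compared with 29.3 to 30.4 CPM), the highest sum of MHC class II genes (888 CPM, compared with 265 to 444 CPM) and the highest sum of B cell and follicle markers (326 CPM, compared with 14.2 to 53.3 CPM). Mouse 5 had the highest Zg16 level (3142 CPM, compared with 1966 to 2257 CPM), the highest sum of MHC class I and immunoproteasome genes (2265 CPM, compared with 1855 to 1958 CPM) and the highest sum of smooth muscle markers (7005 CPM, compared with 2970 to 4062 CPM). The 10 most abundant genes took 15.6% of the counts of mouse 5, compared with 12.0 to 12.9% in the others.

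With 5% RPS, mouse 1 had the highest Ndrg1 level (293 CPM, compared with 170 to 205 CPM) and the highest sum of small intestinal enterocyte markers (557 CPM, compared with 463 to 482 CPM). Mouse 3 had the highest Ighv1-82 level (5.82 CPM, compared with 2.02 to 2.84 CPM), mouse 4 the highest sum of goblet cell markers (11885 CPM, compared with 8137 to 8482 CPM), and mouse 5 the highest Retnla level (10.5 CPM, compared with 7.25 to 7.57 CPM) and the highest sum of epithelial oxidases (467 CPM, compared with 203 to 278 CPM).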

How the results depend on the processing

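The counts of 28 upregulated and 37 downregulated genes, or 1 of the 2 counts, moved by over 1.5 times under these settings. They were 146 and 105 with DESeq2's Wald test (all 65 genes among them), 97 and 72 with limma's voom and sample weights, 15 and 15 with all 20 mice in 1 fit (24 of the 65 among them), and 1 and 1 (Nags and Apoa4) with the fold change tested against 1.5. Without both mice with the highest mitochondrial share, only the upregulated count moved by that much. It was then 48, with 40 genes downregulated and 41 of the 65 among the called genes. With the smooth muscle level as a covariate the counts were 0 and 3. Leaving out each mouse gave 1 to 65 upregulated and 4 to 55 downregulated genes. The downregulated count was 4 without mouse 4 on 0% RPS or mouse 3 on 5% RPS and 5, 7, 9, 22 and 24 without mouse 2 on 5%, 5 on 5%, 3 on 0%, 4 on 5% and 1 on 0% RPS. The upregulated count was 1 without mouse 3 on 5% RPS, 2 without mouse 4 on 0%, 2 on 5% or 5 on 5%, 4 without mouse 3 on 0%, 8 without mouse 4 on 5%, 11 without mouse 2 on 0%, 12 without mouse 1 on 0%, 52 without mouse 1 on 5% and 65 without mouse 5 on 0% RPS. The cause was not tested. A median called gene was called in 3 of the 10 fits. With the other settings, the B cell covariate among them, the counts stayed within 1.5 times. Of 1947 estimates for 85 genes under all settings, 1 turned, that of Apob, to 0.034 with the smooth muscle covariate. Both comparisons between RPS diets gave 0 genes throughout. No paired analysis was possible because the labels give each mouse a number of its own and the diets share none.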

Other observations

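Of the 65 called genes, 49 stand in no list, and a few of those not named above are given here, chosen after their values were seen. Among upregulated genes of immune cells, Ccl8, a chemokine of macrophages, had 1.47, 0.775, 0.807, 1.28 and 0.346 CPM with 0% RPS and 1.99, 4.44, 3.38, 3.34 and 6.34 CPM with 5% RPS (log2 fold change 2.05, SE 0.39, adjusted p = 0.0460). Ly75, an endocytic receptor of dendritic cells, ran from 10.7 to 18.9 CPM and from 23.2 to 36.3 CPM (log2 fold change 0.82, adjusted p = 0.0467). Cytip, a scaffold of lymphoid cells, had a log2 fold change of 0.77, and Tnfrsf14, a receptor of the tumor necrosis factor family, one of 0.86 (adjusted p = 0.0460 for both).

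Downregulated genes of epithelial and metabolic function included Ckmt1, the mitochondrial creatine kinase, with 548, 616, 647, 593 and 798 CPM with 0% RPS and 467, 419, 369, 427 and 361 CPM with 5% RPS (log2 fold change -0.65, SE 0.11, adjusted p = 0.0337). Upp1, which breaks down uridine, ran from 22.3 to 27.7 CPM with 0% RPS and from 13.6 to 19.2 CPM with 5% RPS (log2 fold change -0.68, adjusted p = 0.0354). Capg, which caps actin filaments, had a log2 fold change of -0.63 (adjusted p = 0.0443) and Anxa3, an annexin, one of -0.69 (adjusted p = 0.0337). Map3k8, a kinase of inflammatory signaling, had a log2 fold change of -1.09 (adjusted p = 0.0446).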
